A study of Mus musculus with 36 samples.

Results

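Cyp2a, Cyp2d and Cyp2j genes encode cytochrome P450 enzymes, heme proteins of the hepatocyte endoplasmic reticulum that insert an oxygen atom into drugs, steroids, fatty acids and plant compounds. The genes described here are Cyp2a5, Cyp2a12, Cyp2a22, Cyp2d9, Cyp2d10, Cyp2d22, Cyp2d26, Cyp2d40, Cyp2j5 and the single-gene relative Cyp2u1. They were chosen by symbol, as 10 of the 53715 gene identifiers in the count table. A filter on low counts kept 14068 genes, among them 9 of the 10; Cyp2a22 was listed at 0 in every library.

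Livers came from male C57BL/6 mice aged 10 weeks. All mice ate the purified AIN93G diet, either without tomato (Control) or with 10% by weight of powder from red tomatoes (Red) or tangerine tomatoes (Tangerine), for 6 weeks from the age of 4 weeks. Each diet had 12 libraries, each from 1 mouse and numbered as in the labels, and the labels state groups of 11 to 12 mice. The hour at which the livers were collected is not given in the sources used here. Libraries held between 21290169 and 33810573 counts, of which the 10 genes took 0.443% ± 0.0324 (SD, n = 36). Hepatocyte markers such as Alb were abundant in every library, with summed levels of 81552 to 121679 CPM (counts scaled to a common library total). Red 186 stood apart with 158.7 CPM of summed T cell markers, against at most 4.25 CPM in any other library on that diet, and Tangerine 216 held 10.2 CPM of pancreas acinar markers, against at most 0.330 CPM elsewhere. In bulk liver, fewer cells of a type and less RNA per cell cannot be told apart.

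As background, Cyp2a5 is the mouse coumarin 7-hydroxylase and the counterpart of the human nicotine-oxidising enzyme CYP2A6. Its neighbour Cyp2a4 is a steroid hydroxylase with a nearly identical sequence. Both genes are known targets of the PAR bZip factors Dbp, Tef and Hlf, which carry the output of the circadian clock to liver detoxification genes. Cyp2a12 hydroxylates testosterone and bile acids. Cyp2d9 is a male-predominant steroid hydroxylase under growth hormone control, and Cyp2d22 is often described as the closest mouse relative of human CYP2D6. Cyp2d10, Cyp2d26 and Cyp2d40 belong to the same gene cluster, and their substrates are less well defined. Cyp2j5 converts arachidonic acid to epoxides, and Cyp2u1 hydroxylates fatty acids.

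The Cyp2a5 and Cyp2a4 promoters are shown first because these genes varied together from liver to liver. Sequences are those of RefSeq for the GRCm38.p6 build, on the gene's strand and numbered from the start that RefSeq annotates. Gene spans given further on are those of GENCODE M21, whose starts differ from RefSeq's for some genes. Parts of the Cyp2a5, Cyp2a4 and Cyp2d26 windows and the whole Cyp2d9 window therefore lie inside the GENCODE span. In Cyp2a5 and Cyp2d26 that part holds the TATA element given below. Capitals mark TTGCATAA, which resembles the site bound by PAR bZip factors, and CAAAGTCC, which resembles the site read by hepatocyte nuclear receptors such as Hnf4a. The Cyp2a5 window is chr7:26835189-26835318 on the plus strand and the Cyp2a4 window is chr7:26307042-26307171 on the plus strand, both covering bases -150 to -21.
Cyp2a5: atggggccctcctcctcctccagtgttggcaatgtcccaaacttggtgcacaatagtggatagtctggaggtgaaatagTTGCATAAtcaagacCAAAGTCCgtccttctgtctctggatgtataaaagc
Cyp2a4: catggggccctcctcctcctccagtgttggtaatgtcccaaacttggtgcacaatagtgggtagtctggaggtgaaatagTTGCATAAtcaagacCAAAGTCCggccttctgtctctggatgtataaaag

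TTGCATAA lay at bases -71 to -64 of Cyp2a5 and at -70 to -63 of Cyp2a4. Searched on both strands of windows running from 250 bases before to 50 bases after the start, it occurred in 0.743% of 32851 RefSeq promoters. CAAAGTCC lay at -56 to -49 and at -55 to -48, and occurred in 1.42% of promoters. A TATA element, TATAAAA, lay at -29 to -23 and at -28 to -22, and occurred in 5.48% of promoters. Aligned over 299 bases, the promoters of Cyp2a5 and Cyp2a4 differed at 5. The other PAR bZip forms searched, TTATGTAA and TTACGTAA, occurred in 0.938% and 0.119% of promoters and had no match in the windows of these genes. Letters matching a site describe the sequence and do not show binding.

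The Cyp2a12 and Cyp2a22 windows are shown because the first gene was abundant and the second was listed at 0, although they align at 258 of 289 bases. Cyp2a12 is taken from chr7:27028940-27029069 on the plus strand and Cyp2a22 from chr7:26939407-26939536 on the minus strand, both from -150 to -21.
Cyp2a12: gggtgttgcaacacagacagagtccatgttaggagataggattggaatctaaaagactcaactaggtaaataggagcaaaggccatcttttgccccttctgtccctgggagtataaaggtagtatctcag
Cyp2a22: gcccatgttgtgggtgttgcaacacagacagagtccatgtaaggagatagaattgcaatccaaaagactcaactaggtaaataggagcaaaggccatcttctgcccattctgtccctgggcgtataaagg

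In the Cyp2d cluster, capitals mark CAAAGGGCA, which also resembles a nuclear receptor site, and TTTATAAGG, which holds a TATA element. The windows are chr15:82452277-82452362 on the plus strand for Cyp2d9, chr15:82407212-82407297 on the minus strand for Cyp2d10, chr15:82764200-82764285 on the minus strand for Cyp2d40 and chr15:82794263-82794348 on the minus strand for Cyp2d26.
Cyp2d9: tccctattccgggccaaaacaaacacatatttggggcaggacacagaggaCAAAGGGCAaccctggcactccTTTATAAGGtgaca
Cyp2d10: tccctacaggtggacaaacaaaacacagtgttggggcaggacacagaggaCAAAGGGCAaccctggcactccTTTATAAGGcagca
Cyp2d40: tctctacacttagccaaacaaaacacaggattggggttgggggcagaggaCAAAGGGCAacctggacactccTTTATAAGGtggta
Cyp2d26: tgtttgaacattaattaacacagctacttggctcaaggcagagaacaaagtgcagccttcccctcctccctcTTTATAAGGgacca

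CAAAGGGCA was present in Cyp2d9, Cyp2d10 and Cyp2d40 and in 0.472% of all promoters, and TTTATAAGG was present in all 4 windows and in 0.280% of promoters. TTTATAAGG lay at -28 to -20 in Cyp2d9 and at -31 to -23 in Cyp2d10 and Cyp2d26, but at -91 to -83 in Cyp2d40, counted from the RefSeq starts. CAAAGGGCA lay at -50 to -42 in Cyp2d9, at -53 to -45 in Cyp2d10 and at -113 to -105 in Cyp2d40. Cyp2d9 and Cyp2d10 were identical at 222 of 297 aligned bases. The motifs were chosen with these windows in view, and the 4 Cyp2d windows shown were placed around TTTATAAGG. The presence of the motifs here is therefore a description. By symbol, 8 of the 10 genes matched a promoter entry, and Cyp2d22 and Cyp2u1 did not. Cyp2j5, Cyp2a12 and Cyp2a22 held none of the motifs searched.

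Cyp2a22 (ENSMUSG00000091867, chr7:26931631-26939384, minus strand, GRCm38) had 0 counts in all 36 libraries. In the GENCODE M21 annotation its span lies wholly inside that of the pseudogene Cyp2a21-ps on the opposite strand. Of 1274 protein-coding genes whose span lies inside another gene's, 1247 (97.9%) were listed at 0 in every library, against 3150 of 20616 other protein-coding genes (15.3%). Oat, Hsd3b5 and Per3, genes known to be active in mouse liver, also lie wholly inside another gene's span, Hsd3b5 on the opposite strand and Oat and Per3 on the same strand, and were also listed at 0. The zero of Cyp2a22 therefore cannot be read as absence of expression.

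Between genes, levels were compared as CPM per kilobase of merged exons, averaged over all 36 livers. Cyp2d10 (455 ± 52.4, SD) and Cyp2d9 (445 ± 75.2) were highest, followed by Cyp2d26 (383 ± 42.4) and Cyp2j5 (312 ± 27.8). Cyp2a12 (134 ± 14.1), Cyp2d22 (89.3 ± 9.06) and Cyp2a5 (74.3 ± 38.3) were intermediate, and Cyp2d40 (37.6 ± 5.35) and Cyp2u1 (9.37 ± 2.32) were lowest. Neighbours whose mean ± SD ranges overlapped were Cyp2d10 with Cyp2d9, Cyp2d9 with Cyp2d26, Cyp2d22 with Cyp2a5 and Cyp2a5 with Cyp2d40. When coding length replaced exon length, 5 of the 9 genes kept their place. The top of the order changed. Cyp2d9 and Cyp2d10 have the same coding length of 1512 bases, and Cyp2d9 had the higher mean level (1182 against 750 CPM).

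**Figure D1:**
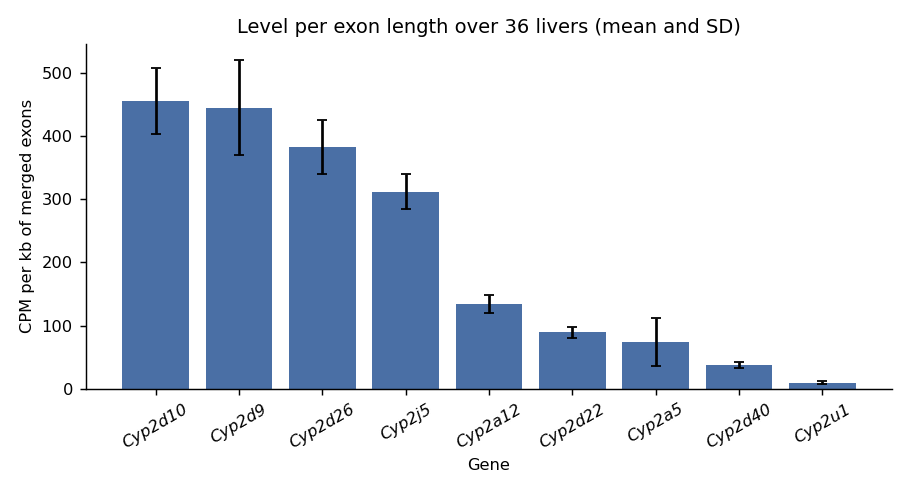
Bars give the mean and whiskers the SD of each gene's level over 36 livers, in CPM per kilobase of merged exons on a linear axis from 0. Cyp2d10 and Cyp2d9 are highest with overlapping spreads, and Cyp2u1 is lowest at 9.37.

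The exons of close relatives limit how far some of these levels belong to 1 gene. Of all 50-base stretches in its transcripts, Cyp2a5 shares 37.0% with other genes, mostly Cyp2a4, and Cyp2d10 shares 35.8%, mostly with Cyp2d11. The share was 21.8% for Cyp2d9 (mostly Cyp2d12), 20.1% for Cyp2a12 (mostly Cyp2a22), 14.5% for Cyp2d40 and 12.3% for Cyp2u1, which overlaps the antisense gene 4930534D22Rik. Cyp2d26 at 9.49%, Cyp2d22 at 4.13% and Cyp2j5 at 0.174% are the most separable. How reads matching several genes were counted is not given in the sources used here.

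Cyp2a5 (ENSMUSG00000005547, chr7:26835305-26843548, plus strand) varied most among the tested genes of this set. It alone of them passed the test between diets, being higher on tangerine than on red. On the control diet its level ran from 56.4 to 289.5 CPM with a median of 177. On the red diet it ran from 54.7 to 177 CPM with a median of 82.6, and on the tangerine diet from 91.2 to 332 CPM with a median of 171. All 12 tangerine livers lay above the red median and 5 lay above every red liver, while 1 of 12 red livers lay above the control median, so the groups overlapped.

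The mean level of Cyp2a5 was 172 ± 80.2 CPM on the control diet, 96.1 ± 39.6 on red and 194 ± 79.4 on tangerine (SD, n = 12 each). In a model over all 36 libraries, Cyp2a5 was 2.02-fold higher on tangerine than on red (log2 fold change 1.02, SE 0.256, 95% interval 0.50 to 1.54, edgeR quasi-likelihood adjusted p = 0.0309). It was the single gene called among the 9 tested, in a comparison that called 1.71% of all tested genes. The red diet against control gave a log2 change of -0.84 (SE 0.255, adjusted p = 0.131), and tangerine against control gave 0.18 (SE 0.253, adjusted p = 0.9999).

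The tangerine against red call was close to the threshold. It was lost without Red 186 and Tangerine 216, the libraries with T cell and pancreas transcripts (log2 change 0.95, adjusted p = 0.0948), and in 10 of the 36 fits that left out 1 library, where adjusted p ranged from 0.0175 to 0.0716 and the log2 change from 0.92 to 1.13. Those 10 libraries were Red 133, 156, 166, 175, 199 and 202 and Tangerine 215, 216, 217 and 242. It was also lost with no filter on low counts (adjusted p = 0.0635) and with the mouse number as a covariate (log2 change 0.84, adjusted p = 0.108).

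**Figure D2:**
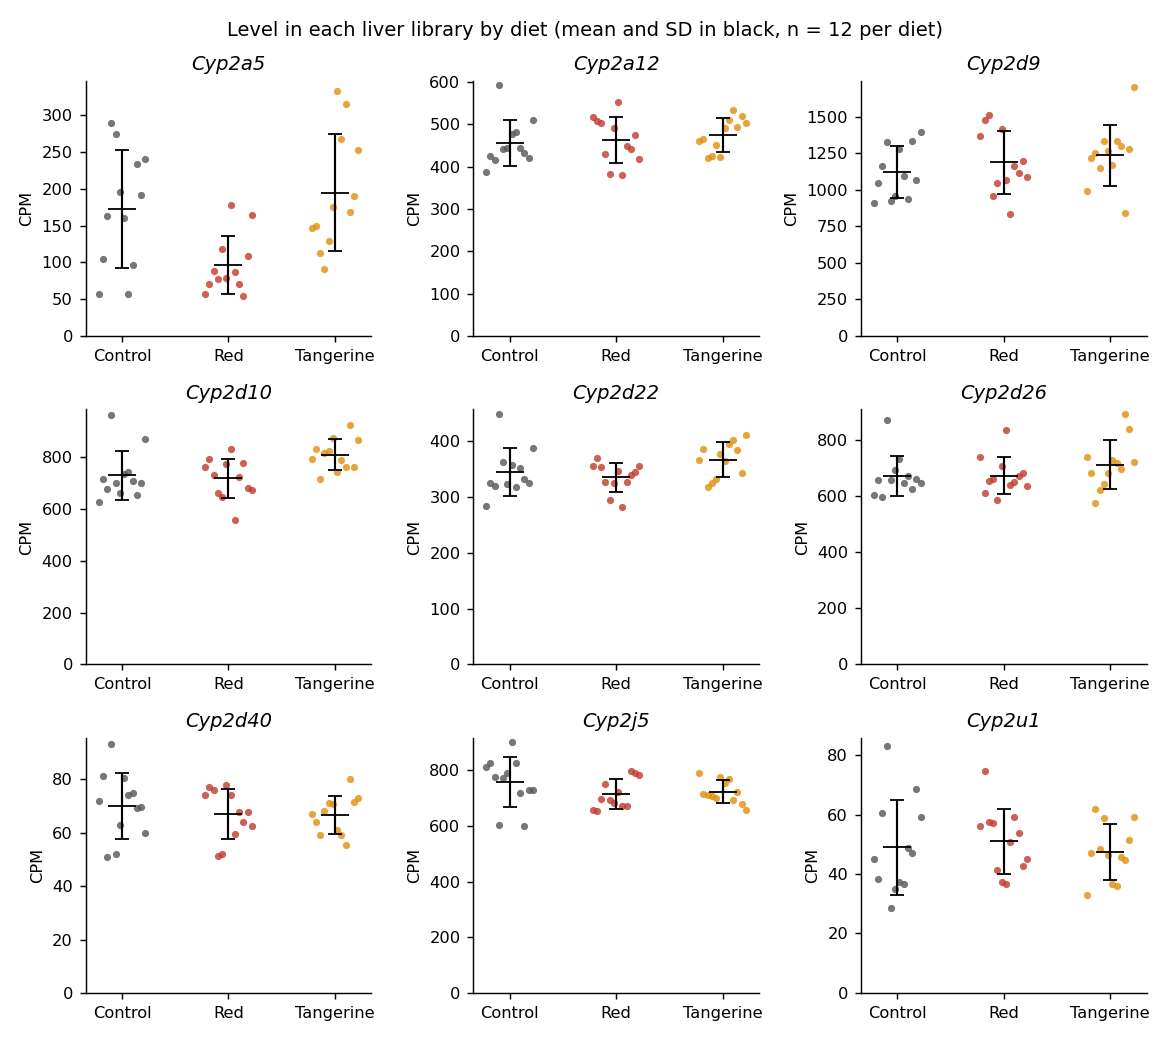
Each point is 1 liver and each panel 1 gene, with the level in CPM on a linear axis from 0, and the black marks give the mean and SD of 12 livers per diet. Cyp2a5 spreads from 54.7 to 332 CPM with the red livers at the lower end. The ranges of the diets overlap almost wholly for Cyp2d40, Cyp2j5 and Cyp2u1.

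Within each diet, Cyp2a5 followed the state of the clock genes. That state was expressed as the log2 CPM of Dbp minus the log2 CPM of Arntl, the core clock gene that peaks when Dbp is low. The difference ran from -3.59 to 5.56 with a median of 3.87 on the control diet, from -2.99 to 3.21 with a median of -0.23 on red, and from 1.44 to 6.89 with a median of 3.55 on tangerine. Red livers thus sat lower than the others, with overlap.

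In the 6 livers with the lowest values, which were Control 188 and Red 202, 199, 186, 156 and 166, Cyp2a5 ranged from 54.7 to 86.3 CPM. In the 6 with the highest values, which were Control 240 and 208 and Tangerine 242, 217, 215 and 216, it ranged from 192 to 332 CPM. These ranges did not overlap. Most livers of the low set were on the red diet and none of the high set was, so here diet and ratio are mixed. The share of all genes that also separate these sets was not counted.

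With diet in the model, Cyp2a5 rose by 0.25 on the log2 scale per unit of the ratio (SE 0.0254, 95% interval 0.20 to 0.30, edgeR adjusted p = 1.18e-08), rank 10 of 14068 genes by p. It was again the single gene called among the 9 tested, where 5.21% of all tested genes were called and 18.1% had an unadjusted p under 0.05. Fitted within each diet alone, the slope was 0.26 on control (adjusted p = 0.0162), 0.22 on red (adjusted p = 0.0373) and 0.26 on tangerine (adjusted p = 0.00151), and the diets' slopes were not shown to differ (edgeR p = 0.720, adjusted p = 0.985). The slope stayed between 0.24 and 0.26 when any 1 library was left out.

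With the ratio held as a covariate, the tangerine against red difference of Cyp2a5 was 0.02 on the log2 scale (SE 0.163, 95% interval -0.31 to 0.36, adjusted p = 0.968) and that of red against control was -0.03 (SE 0.151, adjusted p = 0.965). No gene of the table was called for tangerine against red in that fit. The ratio is made from genes that themselves differed between these diets, so diet and clock state cannot be told apart in this comparison.

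**Figure D3:**
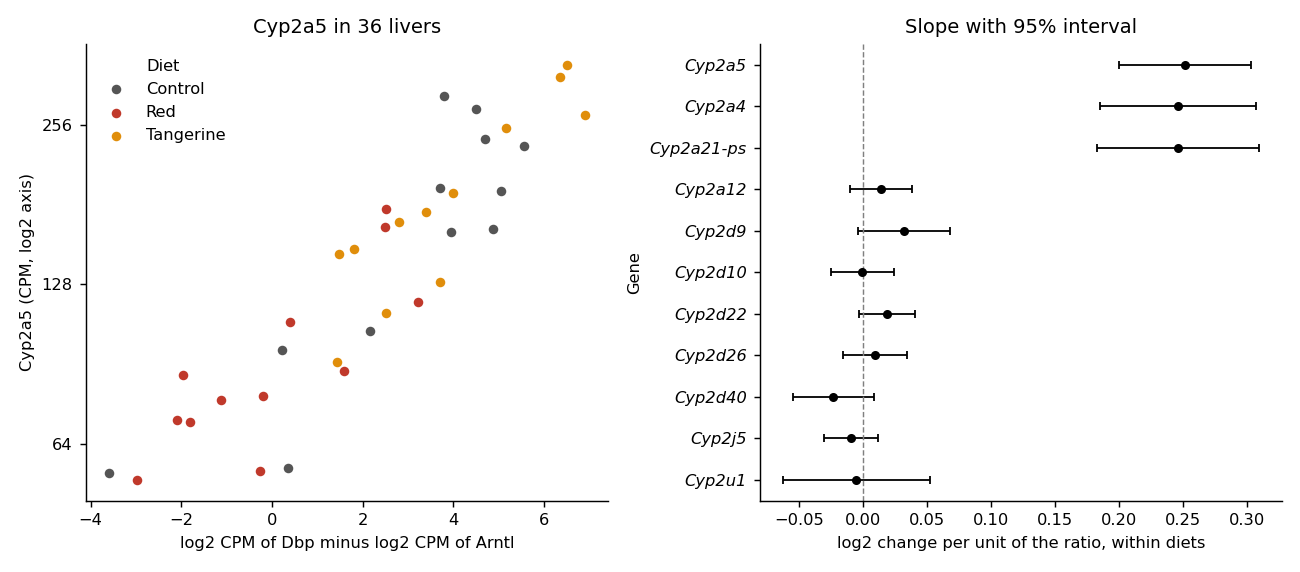
Left, the Cyp2a5 level of each of 36 livers in CPM on a log2 axis against the Dbp to Arntl log2 difference, coloured by diet, and right, each gene's slope on that difference within diets with its 95% interval. Cyp2a5, Cyp2a4 and Cyp2a21-ps share slopes of 0.25 while the intervals of the 8 other tested genes include 0.

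The close relatives of Cyp2a5 moved with it. Cyp2a4 was far less abundant in counts, at 2.56% to 5.69% of the Cyp2a5 count with a median of 3.53%. Its mean level was 6.62 CPM on control, 3.48 on red and 6.52 on tangerine, with a tangerine against red log2 change of 0.91 (SE 0.265, adjusted p = 0.0687) and a slope on the clock ratio of 0.25 (SE 0.0301, adjusted p = 4.79e-07). The pseudogene Cyp2a21-ps, at 1.25 CPM on red and 2.67 on tangerine, had a log2 change of 1.09 (SE 0.264, adjusted p = 0.0251). Since 38.8% of the 50-base stretches of Cyp2a4 and 27.0% of those of Cyp2a21-ps also occur in other genes, mostly Cyp2a5, the part of shared reads in these values was not tested.

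The other Cyp2a gene, Cyp2a12 (chr7:27029081-27037375, plus strand), had similar levels on all diets and passed no test. It ran from 387 to 592 CPM on control with a median of 443, from 382 to 552 on red with a median of 461, and from 420 to 534 on tangerine with a median of 479. Its log2 change was 0.02 on red and 0.06 on tangerine relative to control, and 0.04 between the tomato diets, with a 95% interval of -0.09 to 0.17. Its slope on the clock ratio was 0.01 (95% interval -0.01 to 0.04), outside the interval of Cyp2a5.

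Cyp2d10 and Cyp2d22 had somewhat higher levels on the tangerine diet that did not pass adjustment. Cyp2d10 (chr15:82402846-82407195, minus strand) ran from 626 to 962 CPM on control with a median of 702, from 558 to 828 on red with a median of 727, and from 714 to 923 on tangerine with a median of 803. The control median was exceeded by all 12 tangerine livers, and every red liver was exceeded by 4 of them. The log2 change was 0.17 for tangerine against red (95% interval 0.04 to 0.30, unadjusted p = 0.0103 in edgeR, adjusted p = 0.171) and 0.15 for tangerine against control (unadjusted p = 0.0241 in edgeR, adjusted p = 0.819).

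Cyp2d22 (chr15:82370527-82380260, minus strand) ran from 284 to 449 CPM on control with a median of 329, from 283 to 369.7 on red with a median of 342, and from 319 to 412 on tangerine with a median of 372. Of the tangerine livers, 6 of 12 lay above every red liver, yet the groups overlapped. The tangerine against red log2 change was 0.13 (95% interval 0.01 to 0.25, edgeR adjusted p = 0.273).

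Cyp2d9 (chr15:82433437-82456845, plus strand) had the widest range of the abundant Cyp2d genes. It ran from 910 to 1397 CPM on control with a median of 1084, from 833 to 1510 on red with a median of 1142, and from 839 to 1702 on tangerine with a median of 1261. The diets overlapped over most of that range, and tangerine against control gave 0.14 (95% interval -0.06 to 0.34, edgeR adjusted p = 0.982).

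Cyp2d26 (chr15:82790101-82794294, minus strand) ran from 595 to 871 CPM on control with a median of 657, from 585 to 838 on red with a median of 659, and from 576 to 893 on tangerine with a median of 709. Its log2 changes were 0.00 for red and 0.08 for tangerine against control. Cyp2d40 (chr15:82759833-82764183, minus strand), the least abundant Cyp2d member, ran from 50.8 to 93.4 CPM on control with a median of 70.9, from 51.2 to 77.8 on red with a median of 67.8, and from 55.6 to 80.1 on tangerine with a median of 67.6. Neither gene passed the test in any comparison.

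Cyp2j5 (chr4:96628773-96664154, minus strand), the epoxygenase, varied least. It ran from 599 to 902 CPM on control with a median of 775, from 656 to 799 on red with a median of 695, and from 659 to 790.1 on tangerine with a median of 714. The control median was exceeded by 3 of 12 red and 2 of 12 tangerine livers. The log2 change of Cyp2j5 was -0.08 for red (95% interval -0.20 to 0.03) and -0.07 for tangerine (95% interval -0.18 to 0.05) against control. Cyp2u1 (chr3:131288441-131303227, minus strand) ran from 28.6 to 83.1 CPM on control with a median of 46.0, from 36.7 to 74.7 on red with a median of 52.3, and from 32.9 to 61.7 on tangerine with a median of 46.8. The interval of its tangerine against red difference, -0.39 to 0.18, was wider than that of Cyp2j5, -0.09 to 0.13.

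Read against the whole table, 1 of the 9 tested genes passed the test between diets. It was Cyp2a5 for tangerine against red, where 1.71% of all tested genes were called. None of the 9 was called for red against control (0.149% of tested genes called), tangerine against control (0.0142%) or both tomato diets together against control (0.00711%, 1 gene). At shares this low, the lack of a call among 9 genes says little about them. At an unadjusted edgeR p under 0.05 the members numbered 1, 1 and 0 in those comparisons and 3 for tangerine against red, while the shares of all genes were 13.3%, 5.47%, 6.77% and 15.1%. DESeq2 called none of the members for red against control. limma-voom called Cyp2a5 there (log2 change -0.76, adjusted p = 0.0344), in a fit that called 10.7% of all tested genes. The median log2 change of the 9 was -0.02, 0.08, 0.03 and 0.06 in the same order, beside 0.00, -0.01, -0.01 and 0.00 over all genes. The comparisons share the control or red libraries, so their values are not independent.

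**Figure D4:**
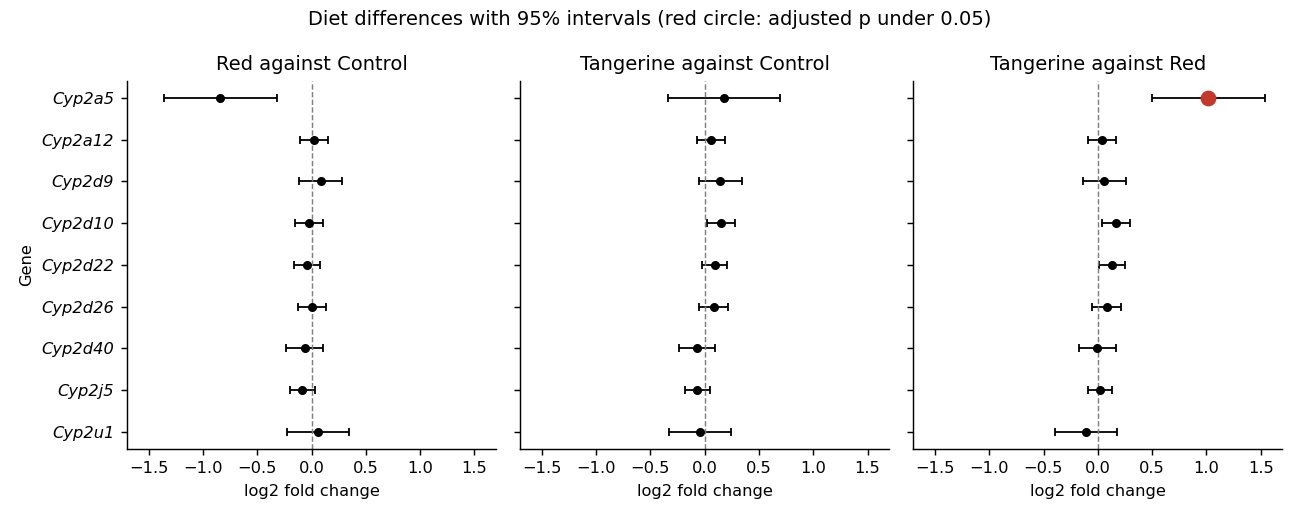
Each dot is the log2 fold change of 1 gene and each bar its 95% interval, for red against control, tangerine against control and tangerine against red, and a red circle marks an adjusted p under 0.05. Only Cyp2a5 in tangerine against red, at 1.02, carries the circle, and its bars are wider than those of the other genes.

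The genes differed widely in how much livers on the same diet varied. The biological coefficient of variation, the spread left after counting error, was 42.4% for Cyp2a5, above that of 96.4% of tested genes. It was 23.9% for Cyp2u1 and 17.0% for Cyp2d9, and lay between 10.3% (Cyp2j5) and 14.6% (Cyp2d40) for the others, beside a median of 15.2% over all genes. Across all 36 livers the highest level of Cyp2a5 was 6.07 times the lowest, while for Cyp2j5 it was 1.51 times. Some livers were extreme for several genes at once: Control 137 was the highest control liver for 7 of the 9 genes, and Red 186 the lowest red liver for 4.

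To describe which genes varied together, diet means were subtracted from log2 CPM and Pearson's r was taken over the 36 livers. These values share libraries and scaling, and none carries a test. Cyp2a12, Cyp2d10, Cyp2d22 and Cyp2d26 had r from 0.54 to 0.77 in their 6 pairs, and Cyp2d40 had 0.57 to Cyp2d10. These values differed between diets and with single livers: Cyp2a12 to Cyp2d10 was 0.94 on control and -0.06 on tangerine, and Cyp2d22 to Cyp2d26 was 0.38 without the 2 livers farthest from the Cyp2d22 median. Cyp2a5 had r of 0.52 to Cyp2d22 and 0.13 to Cyp2d10. Cyp2j5 was below 0 against every other member, from -0.56 to Cyp2u1 to -0.11 to Cyp2d26. Most of these values were weak, and with the 2 farthest livers left out r was 0.05 to Cyp2d22 and 0.13 to Cyp2d26, while within red livers it was 0.31 to Cyp2a5. Of the 36 pairs, 24 were above 0 and 12 below. Sequencing depth and scaling also varied with the genes: r to the log2 total count was -0.41 for Cyp2d10 and 0.35 for Cyp2j5, and r to the log2 normalization factor was -0.51 for Cyp2d22; their part in these values was not tested.

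**Figure D5:**
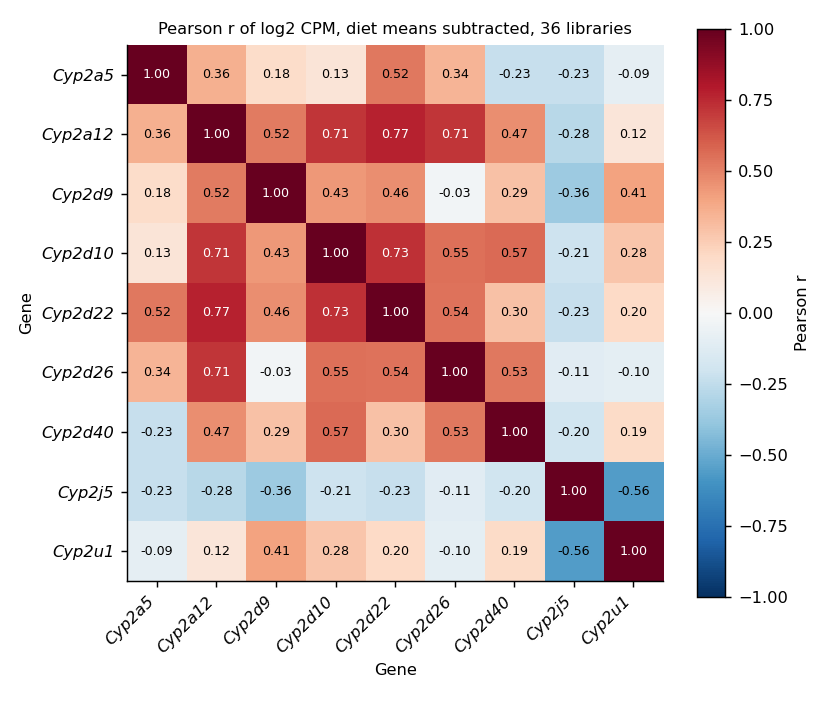
Each cell gives Pearson's r between 2 genes' log2 CPM over 36 livers after diet means were subtracted, from blue at -1 to red at 1. The pairs among Cyp2a12, Cyp2d10, Cyp2d22 and Cyp2d26 range from 0.54 to 0.77, and the Cyp2j5 row is below 0 against every other gene.

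The genes outside the set that varied most like each member were named by the highest r in the same measure. For Cyp2a5 these were Cyp2a4 (0.93), Cyp2a21-ps (0.92) and the PAR bZip factor Tef (0.87). Dbp itself had r of 0.83 and Arntl of -0.82, and with the 2 livers farthest from the Cyp2a5 median left out the values were 0.82 and -0.78. Both held in each diet, from 0.81 to 0.90 for Dbp and from -0.86 to -0.80 for Arntl.

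For Cyp2a12 the nearest was Cyp2f2 (0.82), a P450 of periportal hepatocytes, before Acy3 and Proc. Cyp2d9 was nearest to the glutathione transferase Gstp2 (0.83), the male-predominant Selenbp2 (0.81) and its relative Cyp2d12 (0.81), with which it shares sequence. Cyp2d10 was nearest to Ddrgk1 (0.91), Serpinf1 and Clpp. Cyp2d22 was nearest to Gstp3 (0.88), to Fah (0.87), the last enzyme of tyrosine breakdown, and to Hgfac.

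Cyp2d26 followed Agmat (0.82, Spearman's rho 0.65), Dhrs4 and Tex264. Cyp2d40 had weaker likeness, with Gm3219 (0.73), Nudt1 and Gm5626. Cyp2j5 was nearest to the sulfatase Arsk (0.81), Smpdl3a and Serinc3, and Cyp2u1 to Arfgap1 (0.74), Bcl3 and C1qtnf2.

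Of 12 other genes listed for the same subfamilies, 7 were tested. For tangerine against red, 3 of the 7 had an unadjusted edgeR p under 0.05, beside 15.1% of all genes. Of the 7, 1 was called in that comparison and rose, where 1.71% of all tested genes were called. This was Cyp2d11, at 50.2, 48.6 and 57.8 CPM on control, red and tangerine (log2 change 0.25, SE 0.0683, edgeR adjusted p = 0.0463), which shares 37.2% of its 50-base stretches, mostly with Cyp2d10. The call was lost in 24 of the 36 fits that left out 1 library (adjusted p up to 0.0872) and without Red 186 and Tangerine 216 (0.111). Cyp2j6, the most abundant of the list, was at 80.9, 76.0 and 72.6 CPM (tangerine against red -0.06, adjusted p = 0.623). Cyp2a4 alone of the 7 had a called slope on the clock ratio, where 5.21% of all tested genes were called.

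P450 enzymes need electrons and heme, and none of the 13 genes of that list was called between diets. At most 1.71% of all tested genes were called in any of these comparisons. For tangerine against red, 3 of them had an unadjusted edgeR p under 0.05, beside 15.1% of all genes. Por, the reductase that feeds electrons to all microsomal P450s, was at 156, 118 and 196 CPM (tangerine against red 0.73, adjusted p = 0.210). Por alone of the 13 had a called slope on the clock ratio, where 5.21% of all tested genes were called. The Por slope was 0.23 per unit (SE 0.0340, adjusted p = 2.34e-05). Alas1, the first enzyme of heme synthesis, was at 360.0, 284 and 254 CPM (tangerine against red -0.16, adjusted p = 0.890). The cytochrome b5 gene Cyb5a was at 662, 623 and 712 CPM (0.19, adjusted p = 0.211). Along the clock ratio, Alas1 (0.17 per unit, edgeR adjusted p = 0.126) and Fech (0.03, adjusted p = 0.0595) had an unadjusted p under 0.05 but were not called.

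For tangerine against red, where 1.71% of all tested genes were called, 1 of 11 factors known to bind or control these genes rose. It was Cebpa, a bZip factor of hepatocytes, at 323, 292 and 363 CPM (log2 change 0.31, SE 0.0845, adjusted p = 0.0452). The call was lost in 17 of the 36 fits that left out 1 library (adjusted p up to 0.104) and without Red 186 and Tangerine 216 (0.126). Hnf4a, a nuclear receptor of hepatocytes, was at 642, 602 and 593 CPM (-0.02, adjusted p = 0.920). Along the clock ratio 4 of the 11 were called, where 5.21% of all tested genes were. Each rose by no more than 0.06 per unit: Cebpa, Rxra, Nr1i2 (the xenobiotic receptor PXR) and Hnf4a. None of the 11 was called against control, where at most 0.149% of all tested genes were.

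The clock list held the most calls between diets of the lists examined. It was chosen with earlier results of these data known, so its rank is not independent of them. Of 13 tested genes, 3 rose and 4 fell for tangerine against red, where 1.71% of all tested genes were called. Dbp was at 61.2, 22.6 and 80.5 CPM on control, red and tangerine (log2 change 1.84, SE 0.458, adjusted p = 0.0289), and Tef was at 134.5, 75.5 and 159 CPM (1.08, SE 0.265, adjusted p = 0.0271). Nr1d2, a repressor of Arntl, rose by 0.75 (adjusted p = 0.0173). Arntl fell by 1.46 (adjusted p = 0.0464), its partner Npas2 fell by 2.51 (adjusted p = 0.0224), Clock fell by 0.46 (adjusted p = 0.0492) and Cry1 fell by 0.47 (adjusted p = 0.0497). Of the 36 fits that left out 1 library, the call was lost in 27 for Clock, 23 for Cry1, 19 for Arntl, 10 for Dbp and 5 for Tef, and in none for Npas2 and Nr1d2. Without Red 186 and Tangerine 216 together none of the 7 was called, with adjusted p from 0.0528 (Nr1d2) to 0.133 (Clock). Hlf, the third PAR bZip factor, was at 61.6, 45.6 and 59.4 CPM (0.38, adjusted p = 0.193). All 13 were called along the ratio, which Dbp and Arntl themselves define.

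Lists of sex-dependent genes bear on Cyp2d9 and Cyp2a4, whose levels differ between the sexes. None of the 11 tested genes of the growth hormone and male list, and none of the 5 tested female genes, was called between diets. At most 1.71% of all tested genes were called in any of these comparisons, so the lack of a call says little about the lists. For tangerine against red, 3 of the 11 and 2 of the 5 had an unadjusted edgeR p under 0.05, beside 15.1% of all genes. Mup20, a male-predominant urinary protein, was at 2229, 2194 and 2405 CPM (tangerine against red 0.13, adjusted p = 0.809). Elovl3, a male-predominant fatty acid elongase, was at 238, 413 and 185 CPM (-1.16, adjusted p = 0.0657). Along the clock ratio 2 of the 11 were called, where 5.21% of all tested genes were. Elovl3 fell by 0.29 per unit (adjusted p = 1.27e-06) and Stat5b by 0.06 (adjusted p = 8.2e-05), while the median slope of the 11 was 0.01.

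Among genes of the liver's zones, 3 of 10 pericentral genes were called higher for tangerine against red, where 1.71% of all genes were called. They were Cyp1a2 (log2 change 0.44, adjusted p = 0.0155), which also rose against control (0.54, adjusted p = 0.0115), Gulo (0.25, adjusted p = 0.0237) and Lect2 (0.36, adjusted p = 0.00564). Of the others, not called for tangerine against red, Cyp2e1 (0.25) and Slc1a2 (0.24) were higher and Axin2 (-0.24) and Tbx3 (-0.26) lower. Glul, Lgr5 and Rhbg lay between 0.01 and 0.08. Of 10 periportal genes, the urea cycle enzymes Cps1 (0.40, adjusted p = 0.0446) and Arg1 (0.31, adjusted p = 0.0251) rose in that comparison. Of the others, not called there, Sds (0.36), Ass1 (0.30), Gls2 (0.26) and Pck1 (0.16) were higher. Cdh1 (-0.10), Hal (-0.06), Hsd17b13 (-0.04) and Cyp2f2 (-0.004) were lower. Arg1 also fell by 0.38 for red against control (adjusted p = 0.0167), where 0.149% of all tested genes were called. For tangerine against red the Cps1 call was lost in 16 and the Arg1 call in 2 of the 36 fits that left out 1 library (adjusted p up to 0.102 and 0.0649), and both were lost without Red 186 and Tangerine 216 (0.112 and 0.0967). Of the markers of other cells, 3 of 4 tested T cell markers fell for tangerine against red and no other marker was called, the cholangiocyte marker Sox9 being at -0.42 (adjusted p = 0.263). Their level rests on Red 186, and without it and Tangerine 216 the Cyp2a5 difference was the 0.95 given above.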

How the data were processed

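Liver RNA of 36 mice was measured by RNA-seq, 12 libraries per diet, grouped by the diet in the labels. The authors deposited 1 table of whole-number counts per Ensembl gene, with no normalization. The submitters' processing notes name FastQC, Trimmomatic, edgeR and the GRCm38.p6 build; the aligner, the counter and the strand setting are not given in the sources used here, although the labels' protocols name a directional library kit. Symbols were taken from GENCODE M21 for 53620 of 53715 identifiers.

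Counts were filtered with filterByExpr (minimum count 10), scaled by TMM and tested with edgeR 4.0.16 in R 4.3.3 (robust quasi-likelihood F test, all 36 libraries, Benjamini-Hochberg over 14068 genes, threshold 0.05). The slope model added the Dbp to Arntl log2 difference to diet. CPM used the TMM-scaled library sizes, and log2 CPM a prior count of 2. Standard errors came from the F statistics, and the scripts were tested on simulated data. DESeq2 1.42.0, limma 3.58.1 (voom with sample weights), other scalings, filters and covariates, and leaving out each library served as alternatives. Totals of at least 21290169 counts gave each tested member 820 or more counts per library. No pair of libraries agreed within sampling noise (smallest chi-square per degree of freedom 13.7 over 630 pairs). Labels give a mouse number per library; p-values measure the spread between these mice.

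The members, the lists, the clock ratio and the tests were chosen with earlier results of these data known. Named genes were all members, the list genes that passed the threshold between diets with up to 3 of the most abundant others, and the 3 genes most like each member; list genes named for a slope alone were chosen after their values were seen.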

Additional observations from a re-analysis of the deposited data

How the results depend on the processing

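The Cyp2a5 slope on the clock ratio passed the threshold under every alternative run. The tangerine against red call of Cyp2a5 held with DESeq2 (adjusted p = 0.00579), limma-voom (0.00629), DESeq2 size factors (0.0314) and the 2 diets alone (0.0187). Members called there fell to 0 with no low-count filter, with the mouse number or the ratio as a covariate, and without Red 186 and Tangerine 216; the cause was not tested. No member passed for red against control except 1 with limma-voom.

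With no filter, 136 genes were called between the tomato diets and 6 for both diets. DESeq2 called 167 on red and 7 on tangerine relative to control, 421 between the tomato diets and 12 for both. limma-voom called 1504 on red relative to control, 619 between the tomato diets, 33 for both and 1440 for the slope. The mouse number left 1 on tangerine relative to control and 32 between the tomato diets. The ratio covariate left 4 on red relative to control and 0 between the tomato diets. The slope called 433 genes on Dbp alone, and 39, 51 and 280 in control, red and tangerine livers alone, with fewer samples. Without Red 186 and Tangerine 216 the counts were 53 on red, 86 between the tomato diets and 2 for both.

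Leaving out 1 library gave 13 (without Red 166) to 127 (without Control 189) genes on red relative to control, 2 to 4 on tangerine, 89 (without Tangerine 216) to 301 (without Control 137) between the tomato diets, 1 to 7 for both and 563 to 900 for the slope, with 0 to 1 members called between the tomato diets.

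Log2 values near 0 turned sign. With no filter Cyp2d40 was 0.000674 between the tomato diets. With limma-voom Cyp2d10 was 0.053 and Cyp2d22 0.032 on red, and Cyp2u1 0.075 on tangerine. The mouse number gave -0.010 for Cyp2a5 on tangerine, 0.013 for Cyp2d40 between the tomato diets and -0.0031 for Cyp2u1 for both. The ratio covariate gave 0.016 for Cyp2d22 on red, -0.0030 for Cyp2a5 on tangerine and, between the tomato diets, -0.015 for Cyp2a12, -0.069 for Cyp2d9, 0.083 for Cyp2d40, -0.038 for Tef, 0.038 for Arntl and 0.010 for Cry1. Slopes turned to 0.0071 (Dbp alone) and 0.0043 (control alone) for Cyp2d10, 0.058 for Cyp2u1 (control alone) and 0.0042 for Cyp2j5 (red alone). Without Red 186 and Tangerine 216, Cyp2d10 was 0.0066 on red and the Cyp2u1 slope 0.0023. The causes were not tested.

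With 1 library left out, log2 values that crossed 0 ranged on red from -0.0062 to 0.059 (Cyp2a12), -0.043 to 0.021 (Cyp2d10), -0.029 to 0.043 (Cyp2d26) and -0.0044 to 0.15 (Cyp2u1). For Cyp2u1 they ranged from -0.099 to 0.048 on tangerine and from -0.046 to 0.10 for both diets. Cyp2d40 ranged from -0.037 to 0.015 between the tomato diets, and slopes from -0.0050 to 0.0022 (Cyp2d10) and -0.030 to 0.0025 (Cyp2u1).

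By coding length, 5 of 9 members kept their place in the order of levels. No paired analysis was possible because no mouse number occurs in more than 1 diet. The coding length of a protein table was not run, and the annotation's coding length took its place after the data were seen. Each tested member held at least 820 counts in every library, so depth limited Cyp2a4 and Cyp2a21-ps, at lowest counts of 45 and 14, more than any member.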
